A study of Homo sapiens with 12 samples.

Results

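The genes described here are 6 that were much higher in SCGB3A2- than in SCGB3A2+ cells at the end of a differentiation of human stem cells to airway epithelium: CA4, CALB1, AKR1D1, LCN15, ST8SIA3 and ANXA13. They were selected on that difference itself, and each is measured by 1 of the 23786 probe sets of the array, of which 22458 carry 1 gene symbol. The difference between the sorts is therefore a description of how the genes were chosen and carries no test. The stated rule compares no levels at earlier times, no relatives and no markers of other cell types. The choice was nevertheless made with earlier results of these data known.

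All 12 arrays came from RUES2, a human embryonic stem cell line, guided by way of definitive and then anterior foregut endoderm into lung progenitors and on to airway cells. The groups were stem cells at day 0 (n = 2, arrays A and C), lung progenitors with high CD47 at day 15 (n = 2, B and C), early airway cells at day 22 (n = 2, A and C), and cells positive or negative for SCGB3A2, a secretoglobin of airway secretory cells, at day 36 (n = 3 each, A, B and C). Airway differentiation used a medium of low Wnt activity, and the labels give no further agent, no other line and no genetic change. The labels name a sort at day 15 and day 36 and none at day 0 or day 22, so across them sorting cannot be told apart from time. Whether replicates were separate cultures is not stated, and the p-values below reflect no more than how far these arrays differ, a spread that may be technical. Levels are the deposited RMA log2 values, so 1 unit is a doubling, values close to the floor are compressed, and a low value does not show that a transcript is absent. Levels of different genes are not comparable, because each probe set has its own response. The sort label was checked on SCGB3A2 itself, which read 2.19, 2.70 and 2.06 in the SCGB3A2- arrays and 9.04, 9.39 and 8.89 in the SCGB3A2+ arrays. It also read 7.24 and 7.05 at day 0, before any differentiation.

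None of the 6 genes is a usual marker of airway epithelium. CA4 is a carbonic anhydrase anchored to the outer face of the plasma membrane, where it interconverts carbon dioxide and bicarbonate, and AKR1D1 is the liver aldo-keto reductase that saturates the A ring of steroids on the way to bile acids. ST8SIA3 adds sialic acid to sialic acid on glycans and is best known from brain. CALB1 encodes calbindin, a cytosolic calcium buffer of neurons and kidney tubules, and ANXA13 is an annexin, a protein that binds membranes in the presence of calcium, found in intestinal and kidney epithelium. LCN15 belongs to the lipocalins, small secreted proteins that carry lipophilic molecules.

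The selection of RefSeq promoters used here returned 3 of the 6 genes. CA4, CALB1 and ANXA13 were not returned, so nothing is said of their promoters. Their absence reflects the selection made here and does not show that RefSeq lacks promoters for these genes. The 3 returned promoters are shown. Each runs from 250 bases before the annotated start to 50 after it, 5′ to 3′ on the gene's strand, from RefSeq on GRCh38.p14. AKR1D1 lies at chr7:138076209-138076508 on the plus strand, LCN15 at chr9:136764469-136764768 on the minus strand and ST8SIA3 at chr18:57352307-57352606 on the plus strand. Capitals mark matches to 7 short motifs searched on both strands. The motif of the core promoter element called the TATA box was TATAAA. That of the homeobox factors CDX was TTTATNG, that of the GATA factors AGATAA, that of the FOXA factors TGTTTNC and that of NKX2-1 was CAAGNG. For nuclear receptors the half-site AGGTCA and the direct repeat CAAAGNNCA were searched.
AKR1D1 promoter: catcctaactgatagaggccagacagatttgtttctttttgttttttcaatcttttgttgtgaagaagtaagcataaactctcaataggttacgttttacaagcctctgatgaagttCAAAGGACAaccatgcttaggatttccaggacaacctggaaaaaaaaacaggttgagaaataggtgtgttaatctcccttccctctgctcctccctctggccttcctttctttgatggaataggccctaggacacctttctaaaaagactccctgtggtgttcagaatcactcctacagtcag
LCN15 promoter: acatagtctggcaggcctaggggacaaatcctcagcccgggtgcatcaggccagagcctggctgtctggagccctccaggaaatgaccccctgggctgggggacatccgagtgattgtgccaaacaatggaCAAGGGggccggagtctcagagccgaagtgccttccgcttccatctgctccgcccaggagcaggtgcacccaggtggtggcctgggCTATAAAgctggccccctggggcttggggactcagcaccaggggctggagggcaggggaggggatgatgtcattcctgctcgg
ST8SIA3 promoter: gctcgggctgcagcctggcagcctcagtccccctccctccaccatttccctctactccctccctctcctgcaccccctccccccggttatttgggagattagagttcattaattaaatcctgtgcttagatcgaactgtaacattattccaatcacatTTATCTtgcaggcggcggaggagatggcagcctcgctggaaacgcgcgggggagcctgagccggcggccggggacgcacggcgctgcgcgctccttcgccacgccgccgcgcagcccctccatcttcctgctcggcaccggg
The 3 windows shared no match. In AKR1D1 the capitals are a match to the nuclear receptor direct repeat at -133 to -125, a motif in 5.28% of 35116 RefSeq promoters of the same length. In LCN15 the first run matches the NKX2-1 motif at -119 to -114, which 42.2% of promoters hold. The second run holds TATAAA at -32 to -27 (11.5% of promoters) inside a reverse-strand match to the CDX motif at -33 to -27 (9.73%), so these matches overlap. In ST8SIA3 the capitals are the reverse-strand GATA motif at -92 to -87, held by 10.3% of promoters. The FOXA motif (18% of promoters) and the half-site (13.8%) were not in these windows. Base composition differed as well, with 41.3% G and C in AKR1D1, 64% in LCN15 and 63% in ST8SIA3 against a median of 58.7%. A match of letters is a description of the window and not a site in use.

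The 3 enzymes were each high in every SCGB3A2- array and low in every SCGB3A2+ array. Values are given in the order of the array letters stated above. CA4 read 4.11 and 4.09 at day 0, 2.95 and 3.14 at day 15, 5.28 and 6.77 at day 22, 7.27, 7.86 and 8.09 in SCGB3A2- cells and 3.82, 4.17 and 4.29 in SCGB3A2+ cells. The SCGB3A2+ arrays spanned the day 0 level, and both day 22 arrays lay between the sorts. AKR1D1 read 1.67 and 1.78 at day 0, 1.87 and 2.56 at day 15, 6.18 and 7.0 at day 22, 5.87, 7.01 and 7.30 in SCGB3A2- cells and 2.89, 3.43 and 3.63 in SCGB3A2+ cells. Its day 22 arrays fell inside the range of the SCGB3A2- arrays, and the SCGB3A2+ arrays stood apart from both, still above every day 0 and day 15 array. ST8SIA3 read 5.35 and 5.15 at day 0, 1.55 and 1.23 at day 15, 2.41 and 3.02 at day 22, 5.44, 5.77 and 6.07 in SCGB3A2- cells and 2.28, 2.81 and 2.51 in SCGB3A2+ cells. It was high at both ends of the course: the lowest SCGB3A2- array was just above the higher stem cell array, whereas day 22 and SCGB3A2+ overlapped.

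The calcium-binding proteins and the lipocalin were also separated in full between the sorts. CALB1 read 4.97 and 5.07 at day 0, 1.92 and 3.31 at day 15, 5.36 and 5.20 at day 22, 8.96, 9.90 and 10.09 in SCGB3A2- cells and 5.55, 6.48 and 6.40 in SCGB3A2+ cells. It reached its highest level in SCGB3A2- cells, and the SCGB3A2+ arrays were themselves above all earlier arrays. ANXA13 read 1.63 and 2.0 at day 0, 1.93 and 1.91 at day 15, 6.47 and 8.34 at day 22, 5.99, 8.19 and 8.61 in SCGB3A2- cells and 3.69, 4.56 and 4.97 in SCGB3A2+ cells. The day 22 arrays again lay within the SCGB3A2- range, which was the widest of the 6 genes (SD 1.41, n = 3). LCN15 read 3.56 and 3.40 at day 0, 3.15 and 3.12 at day 15, 3.57 and 4.40 at day 22, 6.45, 7.27 and 7.44 in SCGB3A2- cells and 4.09, 3.60 and 3.78 in SCGB3A2+ cells. Only its SCGB3A2- arrays stood clear of the rest, and the day 22 and SCGB3A2+ arrays overlapped.

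**Figure D1:**
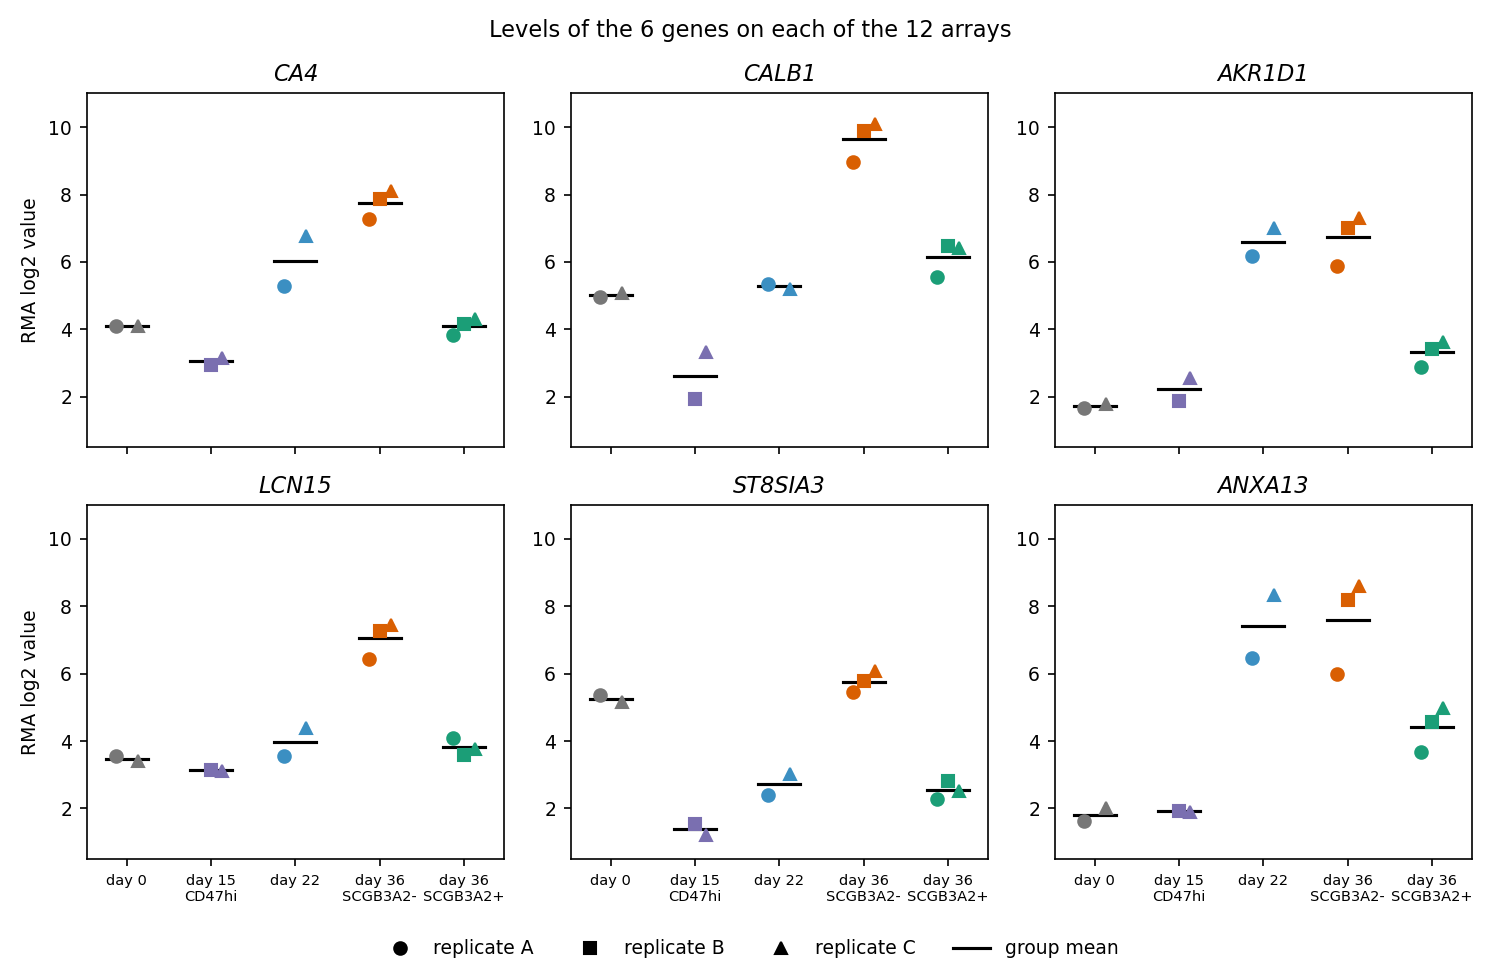
RMA log2 level (vertical axis) of each of the 6 genes on all 12 arrays, by group (horizontal axis), with 1 point per array, its shape giving the replicate letter, and a bar at the group mean. The SCGB3A2- points lie above the SCGB3A2+ points in all 6 panels, whereas the day 22 points sit with SCGB3A2- for AKR1D1 and ANXA13 and with SCGB3A2+ for LCN15 and ST8SIA3.

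The differences on which the genes were chosen, SCGB3A2- minus SCGB3A2+ on the log2 scale, ran from 3.65 ± 0.32 (limma's standard error, SE) for CA4, which is 12.5-fold, to 3.19 ± 0.63 for ANXA13, which is 9.14-fold. Between them were CALB1 at 3.50 ± 0.38, AKR1D1 at 3.41 ± 0.36, LCN15 at 3.23 ± 0.26 and ST8SIA3 at 3.22 ± 0.21. In this comparison 12.8% of all probe sets were called higher and 10.1% lower at adjusted p under 0.05, which is given as background to a selected set. The rule states no numerical threshold. Among named genes the members held ranks 1, 2, 4, 8, 9 and 11, so the last of them, ANXA13, was followed by a gene outside the set, ONECUT2, at 3.14. The genes interleaved with them and not among the 6 were SERPINA6 at 3.45, DLK1 at 3.30, LIN28A at 3.28, SEMA3D at 3.28 and DUSP5 at 3.22. Within letters A, B and C the difference was 2.30, 3.63 and 3.64 for ANXA13 and 2.36, 3.67 and 3.66 for LCN15, lower in A, while for CA4 it was 3.45, 3.69 and 3.80. Array A was the lowest of the SCGB3A2- arrays for 6 of the 6 genes and the lowest of the SCGB3A2+ arrays for 5 of them. How often A was lowest over all probe sets was not counted. In bulk RNA such as this, fewer cells of a type and less RNA per cell cannot be told apart.

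The 6 genes shared the separation of the sorts but differed in how the sorts stood to day 22, which carries no sort label. AKR1D1 and ANXA13 stood near the SCGB3A2- level at day 22 and were lower in SCGB3A2+ cells. SCGB3A2- minus day 22 was 0.14 ± 0.40 and 0.20 ± 0.70 (SE) for these genes. SCGB3A2+ minus day 22 was -3.27 ± 0.40 and -3.0 ± 0.70. The 2 small differences changed sign when day 22 A, SCGB3A2- B or SCGB3A2- C was left out, running from -0.27 to 0.56 for AKR1D1 and from -0.74 to 1.13 for ANXA13 over the arrays left out. CALB1, LCN15 and ST8SIA3 had the opposite form. Their SCGB3A2- level was above day 22 by 4.37 ± 0.42, 3.07 ± 0.30 and 3.05 ± 0.23, whereas SCGB3A2+ minus day 22 was 0.87 ± 0.42 for CALB1, -0.16 ± 0.30 for LCN15 and -0.18 ± 0.23 for ST8SIA3. The last pair turned positive without day 22 C, at 0.26 and 0.13. CA4 lay between these forms, 1.72 ± 0.36 higher in SCGB3A2- cells and 1.93 lower in SCGB3A2+ cells than at day 22, a difference of -1.93 ± 0.36. Measured as a share of the way from the SCGB3A2+ mean up to the SCGB3A2- mean, the day 22 mean stood at 96% for AKR1D1, 93.9% for ANXA13, 52.9% for CA4, 5.46% for ST8SIA3, 4.88% for LCN15 and -24.7% for CALB1. The single day 22 arrays spread widely on this scale, with ANXA13 at 64.6% in A and 123% in C and CA4 at 32.5% and 73.4%. These values use the arrays on which the genes were chosen and carry no test.

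**Figure D2:**
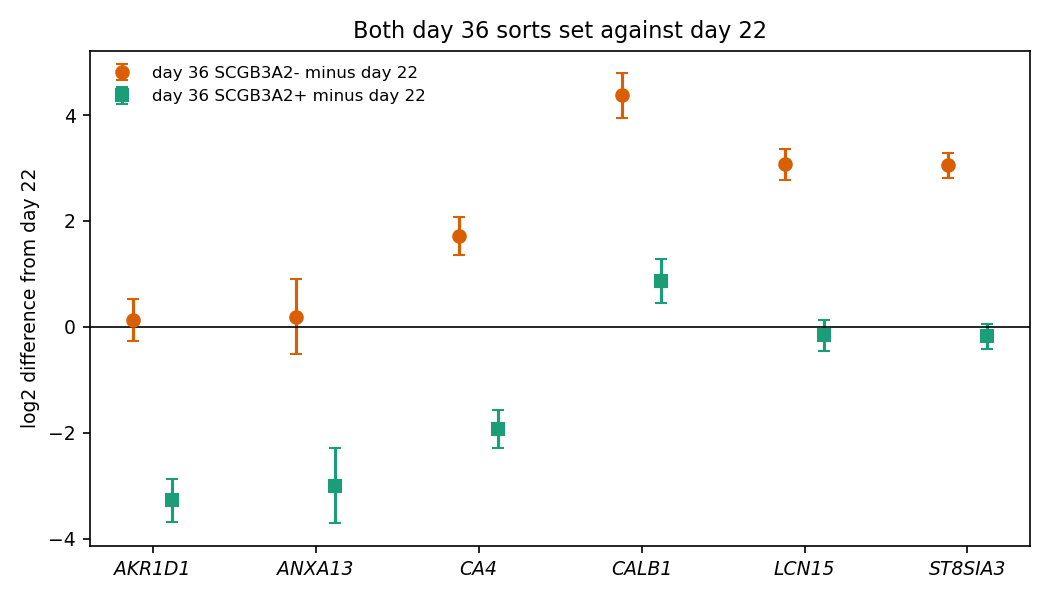
Log2 difference of each day 36 sort from day 22 (vertical axis) for the 6 genes (horizontal axis), with limma's SE as error bars. For AKR1D1 and ANXA13 the SCGB3A2- point sits near 0 and the SCGB3A2+ point near -3, for LCN15 and ST8SIA3 the SCGB3A2- point sits near 3 and the SCGB3A2+ point near 0, and CA4 has 1 point on each side.

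The stated rule compares no arrays of day 0, day 15 and day 22, though earlier results of these data were known. In those arrays the 6 genes were tested with limma over all probe sets. From day 0 to day 15, ST8SIA3 fell by 3.87 ± 0.26 (SE; adjusted p = 6.18e-07) and CALB1 fell by 2.40 ± 0.46 (adjusted p = 0.00175), and no member rose. These are 2 of 6 members lower, where 15.3% of all probe sets were called lower and 16.2% higher. CA4 differed by -1.06 ± 0.39 (adjusted p = 0.0621) and passed without day 22 A or day 22 C (adjusted p = 0.0083 in both), arrays that enter here only through the shared spread. AKR1D1, LCN15 and ANXA13 differed by 0.49 ± 0.44, -0.35 ± 0.32 and 0.10 ± 0.77, with adjusted p of 0.454, 0.48 and 0.944. The steroid reductase and the annexin were thus near the floor at both times.

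From day 15 to day 22, 5 of the 6 genes rose, in a comparison where 8.95% of all probe sets were called higher and 10.6% lower. The largest increases were those of ANXA13, by 5.48 ± 0.77 (adjusted p = 0.00045), and AKR1D1, by 4.38 ± 0.44 (adjusted p = 3.44e-05). CA4 rose by 2.98 ± 0.39 (adjusted p = 0.000285), CALB1 by 2.66 ± 0.46 (adjusted p = 0.00174) and ST8SIA3 by 1.32 ± 0.26 (adjusted p = 0.00349). All day 22 values were above all day 15 values for these 5 genes and also for LCN15, which was not called. The share of all probe sets separated in this way was not computed, so the separation is a description only. LCN15 differed by 0.85 ± 0.32 (adjusted p = 0.0953), and it passed without day 22 A (1.26, adjusted p = 0.0371) or SCGB3A2- A (0.85, adjusted p = 0.0404). Day 22 arrays entered both this comparison and the next, and day 0 or day 15 arrays are likewise shared among the 3, so their values are given side by side only.

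Against day 0, the day 22 level was higher for ANXA13 (5.59 ± 0.77, adjusted p = 0.00013), AKR1D1 (4.87 ± 0.44, adjusted p = 4.45e-06) and CA4 (1.92 ± 0.39, adjusted p = 0.00216) and lower for ST8SIA3 (-2.54 ± 0.26, adjusted p = 1.15e-05). That is 3 of 6 higher and 1 of 6 lower, where 17.3% of all probe sets were called higher and 19% lower. For CALB1 and LCN15 the differences were 0.26 ± 0.46 and 0.50 ± 0.32, with adjusted p of 0.716 and 0.271. CALB1 had thus fallen and risen back to within its error of the stem cell level, whereas ST8SIA3 had regained part of its loss.

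Relatives of the 6 genes did not share a direction between the sorts. For these genes, which were not members, the SCGB3A2- minus SCGB3A2+ difference was tested, and list medians are set beside -0.015 for all probe sets and counts beside the 12.8% higher and 10.1% lower of all probe sets. Where a count lies near those shares, as for the calcium and bile acid genes, it is no result about the family. Of 13 other carbonic anhydrases, 1 was higher and 3 were lower in SCGB3A2- cells (median -0.18), and 2 were higher without SCGB3A2- A. CA12, another membrane-bound form, was higher by 1.66 ± 0.36 (adjusted p = 0.00567). CA8, a member of the family without catalytic activity, differed by -1.92 ± 0.19 (adjusted p = 2.63e-05), and the lower pair CA11 and CA13 by -1.82 ± 0.18 and -1.01 ± 0.24. Of 13 genes of calcium binding and transport, 3 were higher and 2 lower (median 0.08). SCGN, the calcium sensor secretagogin of endocrine cells, was higher by 2.82 ± 0.23 (adjusted p = 6.85e-06). The plasma membrane calcium pumps split, with ATP2B1 higher by 1.09 ± 0.13 and ATP2B4 lower at -2.37 ± 0.18 (adjusted p = 0.000127 and 4.35e-06). The other lower call was S100G, the small intestinal calcium-binding protein, at -0.92 ± 0.19 (adjusted p = 0.00396). It read 1.28 against 2.20, both near the floor.

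Bile acid genes, the pathway of AKR1D1, were mixed as well, with 3 of 18 higher and 4 lower (median 0.14). NR0B2, a nuclear receptor that represses bile acid synthesis, was higher by 2.41 ± 0.20 (adjusted p = 9.76e-06). The uptake carriers of hepatocytes and of ileum, SLC10A1 and SLC10A2, were lower at -3.25 ± 0.25 and -2.34 ± 0.25 (adjusted p = 4.74e-06 and 4.53e-05), as was HSD17B4 of peroxisomal side-chain shortening at -0.76 ± 0.12. The count of 3 higher became 1 without SCGB3A2- A, SCGB3A2- C, SCGB3A2+ B or SCGB3A2+ C, and 2 with the replicate letter as a block, which lost the exporter subunit SLC51A (1.38, adjusted p = 0.0447, and 0.0671 with the block). Among 7 other aldo-keto reductases 0 were higher and 1 was lower (median -0.17), AKR1C2, at -1.74 ± 0.26 (adjusted p = 0.000546). AKR1C3 differed by -0.87 ± 0.33 (adjusted p = 0.0803). The count of lower calls was 2 without SCGB3A2- C or SCGB3A2+ A.

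The other lipocalins had 5 of 18 higher and 2 lower (median 0.04). The higher ones included plasma carriers of the liver, AMBP at 2.76 ± 0.27 (adjusted p = 2.96e-05), ORM2 at 2.39 ± 0.25 (adjusted p = 4.32e-05) and APOM at 1.60 ± 0.20 (adjusted p = 0.000178). APOD was lower at -1.65 ± 0.28 (adjusted p = 0.00123). Sialic acid genes had 4 of 26 higher and 7 lower (median -0.12). ST6GALNAC2, which adds sialic acid to O-glycans, was lower at -3.39 ± 0.24 (adjusted p = 3e-06), ST3GAL5, the enzyme at the first step of gangliosides, at -3.17 ± 0.24 (adjusted p = 4.93e-06) and ST6GAL1 of N-glycans at -1.38 ± 0.16 (adjusted p = 9.22e-05). ST3GAL2 was higher by 1.24 ± 0.13 (adjusted p = 3.59e-05). The closest relatives of ST8SIA3, the other polysialic and oligosialic acid transferases, were not called, with ST8SIA2 at -0.03 ± 0.27 and ST8SIA4 at -0.68 ± 0.30. Of 10 other annexins 2 were higher and 1 lower (median 0.13), 2 lower without day 0 A or day 0 C, and 3 higher with the block, which added ANXA6 (0.62, adjusted p = 0.0955, and 0.0455 with the block). ANXA9 was higher by 2.53 ± 0.34 (adjusted p = 0.000274) and ANXA4 by 1.43 ± 0.13 (adjusted p = 1.8e-05), whereas ANXA1, a regulator of inflammation, was lower at -2.21 ± 0.19 (adjusted p = 1.21e-05).

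The relatives were tested between day 15 and day 22 as well, beside a median of -0.01, 8.95% higher and 10.6% lower over all probe sets. Bile acid genes had 7 of 18 higher and 0 lower (1 without day 22 C; median 0.61), among them BAAT, which conjugates bile acids, at 3.64 ± 0.29 (adjusted p = 6.61e-06). Annexins had 5 of 10 higher and 1 lower (median 0.82), with ANXA1 at 2.71 ± 0.24 and ANXA4 at 1.13 ± 0.16. Sialic acid genes had 7 of 26 higher and 2 lower (median 0.39). ST6GALNAC1 rose by 3.70 ± 0.25, and ST8SIA2 differed by -2.98 ± 0.33 (adjusted p = 8.42e-05), the reverse of ST8SIA3. The 2 lower became 1 without day 15 C or day 22 A. Lipocalins had 4 of 18 higher and 0 lower (median 0.23), with AMBP at 5.39 ± 0.33. Carbonic anhydrases had 4 of 13 higher and 1 lower (median 0.11), with CA2, the main cytosolic form, at 4.67 ± 0.44 (adjusted p = 2.33e-05), and the 4 became 2 without day 15 B. Calcium genes had 4 of 13 higher and 2 lower (median 0.01), with SCGN at 4.50 ± 0.28. Among the calcium genes 1 lower call was left without day 15 C, day 22 A or day 22 C. Of the aldo-keto reductases AKR1B10 alone of 7 was called, at 4.81 ± 0.64 (adjusted p = 0.000312), and 2 were called without day 22 A or SCGB3A2- C and 3 without SCGB3A2+ A or SCGB3A2+ B.

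**Figure D3:**
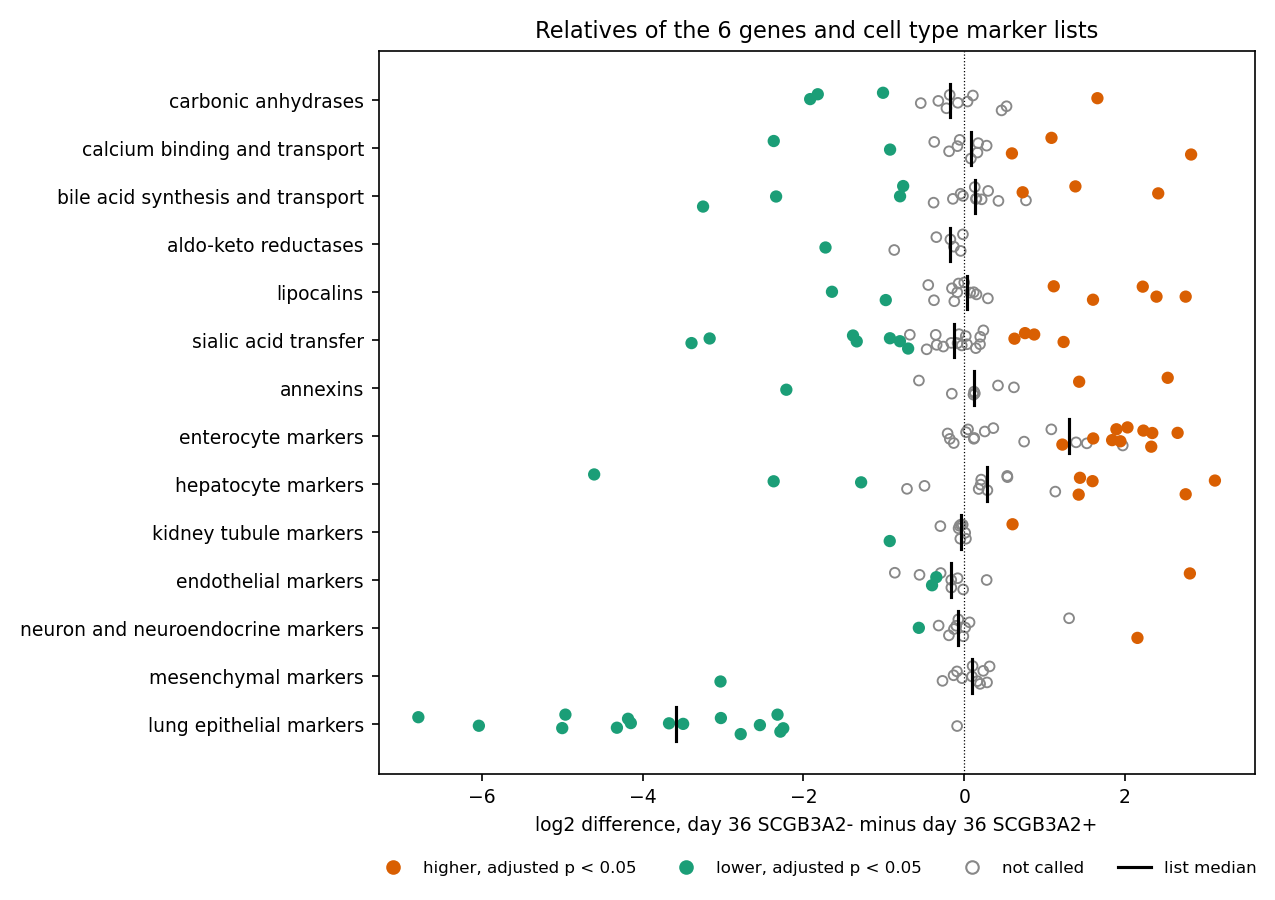
Log2 difference, SCGB3A2- minus SCGB3A2+ (horizontal axis), of every measured gene of 7 lists of relatives and 7 lists of cell type markers (vertical axis), members left out, with filled points at adjusted p under 0.05 and a bar at each list's median. The lists of relatives have called genes on both sides of 0, except the aldo-keto reductases with 1 on the lower side, the enterocyte list has its called genes on the higher side (median 1.31) and the lung list on the lower side (median -3.59).

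Because the 6 genes are known from liver, gut, kidney, brain and capillaries, marker lists of those and other cell types were read beside them, again against 12.8% higher and 10.1% lower over all probe sets. Of 24 enterocyte markers, 10 were higher and 0 lower in SCGB3A2- cells (median 1.31), and 12 were higher with the replicate block, which added the sucrase gene SI and the aminopeptidase gene ANPEP (adjusted p = 0.0599 and 0.0647, and 0.0143 and 0.027 with the block). VIL1, the villin of microvilli, was higher by 2.03 ± 0.21 (adjusted p = 3.41e-05), the lipoproteins APOA1 and APOB by 2.65 ± 0.43 and 2.23 ± 0.35 (adjusted p = 0.000968 and 0.000765) and the gut factor HNF4G by 1.94 ± 0.26 (adjusted p = 0.000262). The homeobox factor CDX2 read 5.74, 6.09 and 6.25 in SCGB3A2- cells and 4.67, 4.12 and 4.47 in SCGB3A2+ cells. FABP1, a fatty acid carrier of gut and liver, differed by 1.08 ± 0.43 (adjusted p = 0.0943). Digestive genes of the list were uneven. The meprin subunit MEP1A and the peptide carrier SLC15A1 were higher by 1.84 ± 0.41 and 1.22 ± 0.25 (adjusted p = 0.00678 and 0.00393), and SI ran from 2.37 to 5.39 over the SCGB3A2- arrays and from 1.93 to 2.43 over SCGB3A2+. ALPI, the intestinal alkaline phosphatase, had means of 2.19 and 2.37 in SCGB3A2- and SCGB3A2+ cells, and the keratin KRT20 had 2.35 and 2.56. The mean level of the list was 4.74 and 5.66 in day 22 A and C, 4.47, 5.02 and 5.22 in the SCGB3A2- arrays and 3.78, 3.55 and 3.98 in the SCGB3A2+ arrays. Array A thus had the lowest value at day 22 and among SCGB3A2- arrays, as it had for 5 of the 6 genes, CALB1 being the exception at day 22, and as it had for the mean of the hepatocyte list. Between day 15 and day 22 the list had 16 of 24 higher and 0 lower (median 1.48). Over all probe sets 8.95% were higher and 10.6% lower there. The count of higher calls was smaller without day 22 C. The part of these markers in the levels of the 6 genes was not tested.

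The listed liver markers did not separate the sorts in 1 direction. Lipoprotein genes such as APOA1 and APOB were counted on the enterocyte list alone, so how the lists differ depends in part on that placing. Of 17 hepatocyte markers 5 were higher and 3 lower in SCGB3A2- cells (median 0.29), and the 5 became 3 without SCGB3A2- B, SCGB3A2- C or SCGB3A2+ A and 6 with the block, which added ASGR1 (0.53, adjusted p = 0.0654, and 0.0272 with the block). VTN was higher by 3.12 ± 0.31 (adjusted p = 2.69e-05), whereas the plasma proteins HP and FGG were lower at -4.60 ± 0.43 and -2.37 ± 0.23 (adjusted p = 1.92e-05 and 2.62e-05). AMBP, already given with the lipocalins, stands on this list too. Albumin read 10.54, 11.40 and 11.54 in SCGB3A2- cells and 10.66, 11.11 and 11.18 in SCGB3A2+ cells, so the groups overlapped. AFP, its fetal relative, read 11.13, 11.45 and 11.51 in SCGB3A2- cells and 9.41, 9.91 and 10.49 in SCGB3A2+ cells, which did not overlap (1.42 ± 0.37, adjusted p = 0.0161). The mean level of the list was 7.49 to 8.06 in SCGB3A2-, 7.52 to 7.68 in SCGB3A2+ and 7.71 to 7.84 in day 22 arrays, against 3.47 to 4.12 at day 15. Between day 15 and day 22, 13 of 17 rose and 0 fell (median 3.82), where 8.95% of all probe sets were higher and 10.6% lower.

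Markers of the other cell types in which members are known were called in both directions. The counts lie near the 12.8% higher and 10.1% lower of all probe sets, so they are no result about these lists. Of 11 endothelial markers, relevant to CA4, 1 was higher and 2 lower, and all of the list but EDNRB were at or below an array's median in at least 1 SCGB3A2- array. PECAM1 and VWF read 1.86 and 1.95 in SCGB3A2- cells, near the floor, and EDNRB, a receptor for endothelin that other cells make too, was higher by 2.81 ± 0.19 (adjusted p = 2.47e-06). The block gave 2 lower as well, with the receptor KDR (-0.86, adjusted p = 0.069, and 0.00782 with the block) in place of CDH5 (0.0594 with the block). The 2 lower calls, CDH5 and TIE1 at -0.35 ± 0.11 and -0.40 ± 0.12, numbered 0 without SCGB3A2- A. Without any 1 of the other day 36, day 22 or day 15 arrays the count of lower calls was 1. Of 10 kidney tubule markers, relevant to CALB1 and ANXA13, 1 was higher and 1 lower. These were AQP2 at 0.60 ± 0.19 (adjusted p = 0.0393) and LRP2 at -0.93 ± 0.27 (adjusted p = 0.0279). The higher count was 0 without any 1 of the day 22 or day 36 arrays, and the lower count 0 without SCGB3A2- A, SCGB3A2- B or SCGB3A2+ A. The list's mean lay between 2.68 and 2.93 in all day 36 arrays. Of 11 neuron and neuroendocrine markers, relevant to CALB1 and ST8SIA3, 1 was higher and 1 lower. The lower one was CHGB at -0.56 ± 0.15 (adjusted p = 0.0173). The lower count was 0 without SCGB3A2- A, SCGB3A2- B, SCGB3A2+ A or SCGB3A2+ B. The higher one was SNAP25, of vesicle release, at 2.16 ± 0.25 (adjusted p = 9.46e-05). The granin CHGA had a mean of 5.77 in SCGB3A2- cells against 4.47 (1.30 ± 0.50, adjusted p = 0.0883) and was called with the block (0.0259), which made 2 higher, as did leaving out SCGB3A2+ B. SYP and STMN2 had means of 2.56 and 2.23 in SCGB3A2- cells. Among 12 mesenchymal markers 0 were higher and 1 was lower, LUM at -3.04 ± 0.34 (adjusted p = 7.63e-05). Their part in the members' levels was not tested.

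Lung epithelial markers, the reverse side of the sort, were lower in SCGB3A2- cells for 15 of 16 genes (median -3.59). Over all probe sets 10.1% were called lower. The 15 include SCGB3A2 itself, whose difference was set by the sort. SFTA3 was lower at -4.96 ± 0.15 (adjusted p = 1.93e-08) and CXCL17 at -4.32 ± 0.19 (adjusted p = 1.74e-07). The lung transcription factor NKX2-1 read 4.18, 4.43 and 3.79 in SCGB3A2- cells, 7.69, 7.57 and 7.63 in SCGB3A2+ cells and 7.02 and 6.75 at day 22, when AKR1D1 and ANXA13 were also high. Surfactant protein gene SFTPB stayed at 9.99, 10.12 and 9.79 in SCGB3A2- cells against 12.26, 12.20 and 12.30 in SCGB3A2+ cells.

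The genes whose levels ran most like each member were taken by Pearson's r over the 12 arrays, among 7059 named genes whose group means spanned at least 1 log2 unit. These arrays fall into 5 groups, which all genes share, so r describes the pattern over groups and carries no p. Nearest to AKR1D1 were SMLR1 (r = 0.987), the globin CYGB (0.984) and the plasma lipocalin APOM (0.984). ANXA13 ran with GATM, an enzyme of creatine synthesis (r = 0.987), the steroid dehydrogenase HSD17B2 (0.986) and APOB (0.967). For CA4 they were DUSP5, a phosphatase of MAP kinases (r = 0.982), NEURL1 (0.978) and PLEKHA6 (0.967). CALB1 had IGF2, a fetal growth factor (r = 0.963), NRG3 (0.955) and ANKH (0.951), and LCN15 had the monoamine oxidase MAOB (0.981), CSMD3 (0.964) and DZIP1L (0.958). For ST8SIA3, high at day 0 and in SCGB3A2- cells, they were ACAT2 of sterol synthesis (r = 0.973), CUX2 (0.971) and CADPS of vesicle release (0.969). No gene was named for more than 1 member.

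Among the 6 themselves r was highest for AKR1D1 and ANXA13 (0.978 over 12 arrays). It was 0.916 for CA4 and LCN15, 0.915 for CA4 and AKR1D1 and 0.911 for CALB1 and LCN15. It was lowest for ST8SIA3 with ANXA13 (0.368) and with AKR1D1 (0.371), genes which were near the floor at day 0 when ST8SIA3 was high. These values include the day 36 arrays on which the genes were chosen.

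**Figure D4:**
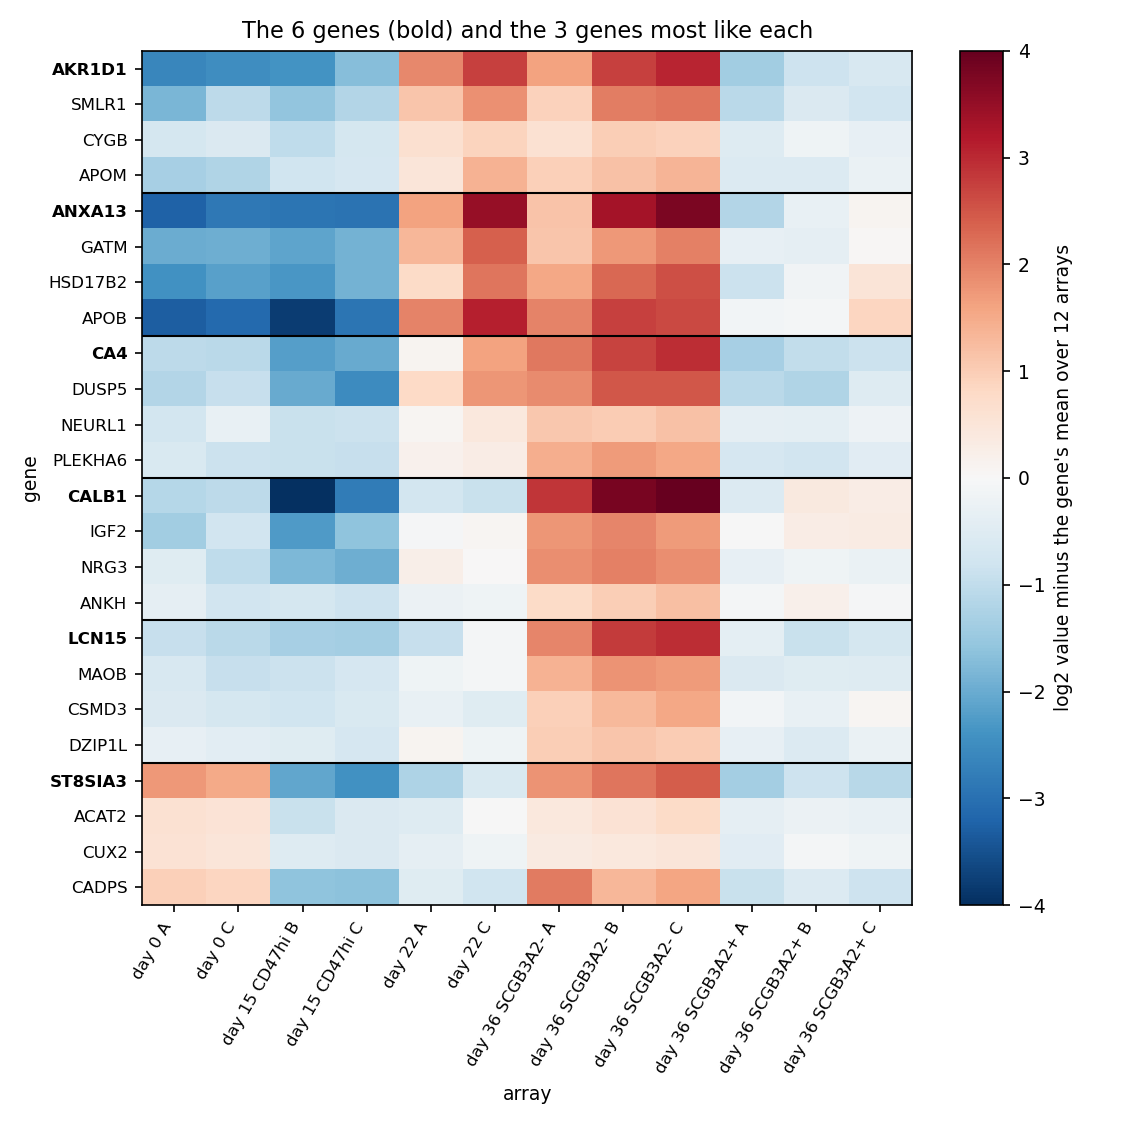
Log2 level of each gene minus its own mean over the 12 arrays (colour, red above and blue below), with 1 row per gene and 1 column per array, for the 6 genes (bold) and the 3 genes most like each. Red covers day 22 and SCGB3A2- for AKR1D1 and ANXA13, SCGB3A2- and, more weakly, day 22 for CA4, SCGB3A2- for CALB1 and LCN15, and day 0 with SCGB3A2- for ST8SIA3.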

How the data were processed

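Gene expression in RUES2 cells was read on 12 Affymetrix arrays. The deposited table holds log2 values that the authors made with RMA, affy 1.36.1 and R 2.15.1, per the submitters' processing notes. RMA corrects background, makes the arrays' distributions alike and summarizes probes, so array medians lay between 3.66 and 3.75. The sources used here do not give the annotation release, and no presence call was made. Symbols came from the platform annotation, and 1328 probe sets without one were not named. 0 columns of sample values were left unused.

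One mean per group was fitted to all 23786 probe sets and 12 arrays with limma 3.58.1 in R 4.3.3 (lmFit, eBayes; residual df 7, prior df 4.43). P-values are two-sided and adjusted by Benjamini and Hochberg over the whole table, with a threshold of 0.05. The script was tested on simulated data. The number of arrays limits the precision.

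The 6 genes and the 14 lists were chosen with earlier results of these data known. The lists held 222 entries, of which 205 distinct genes had a named probe set; the others are not analysed here. For each list the text draws on up to 4 genes of smallest adjusted p between the sorts. Up to 2 more come from day 22 against day 15. The text adds a fixed set and leaves some of these genes out. It also names the 3 genes of highest r with each member. Genes given as low or closest relatives (ALPI, KRT20, SI, PECAM1, VWF, SYP, STMN2 and ST8SIA4), and others on a list (MEP1A, SLC15A1 and those named only for a change with the block), were added after their values were seen.

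Replicate letters were checked for pairing on deviations from group means over all probe sets. Same-letter arrays of the day 36 sorts correlated at 0.104, 0.124 and 0.111 for A, B and C, and the letters were taken to pair them. The main p-values and counts between the sorts nevertheless come from the fit without letters. The replicate block, given beside them as an alternative, applied the letters to all groups, also where pairing was not established. Day 22 and SCGB3A2- arrays of the same letter correlated to a like degree, at 0.126 for A and 0.114 for C. Day 22 and SCGB3A2+ gave 0.0302 and 0.0584, and day 22 and day 0 gave -0.01. The differences from day 22 are given without pairing, and pairing was not established between the other groups. The alternatives were a fit restricted to the compared arrays, robust variances with an intensity trend, array weights, a filter on dim probe sets that kept 16162, centring of arrays on their medians, quantile normalization of the deposited values, a replicate block and 12 fits without 1 array each.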

Additional observations from a re-analysis of the deposited data

How the results depend on the processing

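Over 19 alternative settings the number of members called was 2 to 3 between day 15 and day 0, 5 to 6 between day 22 and day 15, and 4 between day 22 and day 0. Direction and call were kept in 333 member tests under alternatives, 7 passed only there and 2 turned sign. CA4 between day 15 and day 0 passed with only the arrays compared (adjusted p = 0.00941), without dim probe sets (0.0494) and, although pairing was not established for these groups, with a replicate block (-1.30, adjusted p = 0.0109). ANXA13 in that comparison, not called, turned to -0.59 under the replicate block and ran from -0.0846 to 0.288 when 1 array was left out. The differences from day 22 that changed sign were AKR1D1 (-0.27, -0.0025 and -0.15) and ANXA13 (-0.74, -0.10 and -0.31) in SCGB3A2- cells, without day 22 A, SCGB3A2- B and SCGB3A2- C in turn, and LCN15 (0.26) and ST8SIA3 (0.13) in SCGB3A2+ cells, without day 22 C. Over the arrays left out the highest values in SCGB3A2- cells were 0.564 for AKR1D1 and 1.13 for ANXA13, and the lowest in SCGB3A2+ cells were -0.572 for LCN15 and -0.480 for ST8SIA3. The other 124 member differences kept their sign. Probe sets called between the sorts numbered 5440, and 4008 (without SCGB3A2- C) to 6374 (array weights) otherwise. With the replicate block 8 list genes changed call between the sorts, all named above, and no other list gene did. List genes called numbered 67 to 83 there and 77 to 97 between day 22 and day 15. Leaving out an array of a pair leaves 1, which is assumed to vary like the other groups. Groups of 2 or 3 arrays limit the precision, and low levels are compressed by RMA.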

Other observations

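The 5 genes interleaved with the 6 members in the order of SCGB3A2- minus SCGB3A2+ differences differed in their courses before day 36. SEMA3D, a secreted guidance protein, had group means of 3.90 at day 0, 7.77 at day 15, 4.57 at day 22, 7.33 in SCGB3A2- and 4.05 in SCGB3A2+ cells, so it was high in progenitors where the 6 members were at or near their lowest group means. LIN28A, an RNA-binding protein of stem cells, went from 8.07 at day 0 through 5.43 at day 15 and 4.46 at day 22 to 5.48 in SCGB3A2- and 2.21 in SCGB3A2+ cells. DLK1, a fetal surface protein, stood at 3.44, 3.29 and 4.20 at day 0, 15 and 22 and at 8.97 in SCGB3A2- cells, while its SCGB3A2+ arrays ranged from 4.37 to 7.24. SERPINA6, the plasma carrier of corticosteroids, had means of 2.28, 2.89 and 5.01 at those times, 7.11 in SCGB3A2- and 3.66 in SCGB3A2+ cells. DUSP5, the gene most like CA4, stood at 5.32, 4.09, 7.65, 8.66 and 5.44 in the same order of groups. These genes were picked by their place in that order, and their values are a description with no test.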
